A study of Mus musculus with 16 samples.

Results

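Neutrophil granule and surface genes, 10 in all, were followed through 8 RNA sequencing libraries of sorted lymph node macrophages. They were S100a8, S100a9, Retnlg, Ngp, Camp, Ltf, Mpo, Elane, Csf3r and Slpi, chosen by name as 10 of the 55423 rows of the count table. All 10 were among the 21085 genes that passed the filter on low counts, and 8 of them had a mean normalized count over 100 (the exceptions were Mpo and Elane). Sub-capsular sinus macrophages (SSMs, CD11c– with low side scatter) and medullary sinus macrophages (MSMs, CD11c+ with high side scatter) were sorted from tumor-draining lymph nodes (tdLN) and non-draining lymph nodes (ndLN). Every mouse was a male of the C57B/6 strain that had carried an intradermal flank implant of MOC2, a squamous cell carcinoma model, for 2 weeks, so that the ndLN also came from mice with a tumor. Each of the 4 groups (SSM ndLN, SSM tdLN, MSM ndLN and MSM tdLN) had n = 2 libraries, called pool 1 and pool 2, and each library came from the pooled nodes of 2 mice (2 tdLN, or 6 ndLN taken from the contralateral inguinal, axillary and brachial positions). Draining status therefore cannot be told apart from the mixture of node positions.

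Neutrophils make most of their granule proteins while they mature in the bone marrow, in an order that gives the granules their names. Primary granules, filled first, hold myeloperoxidase and neutrophil elastase. Specific granules, filled later, hold lactoferrin, the cathelicidin precursor and neutrophilic granule protein, while the calcium-binding pair S100a8 and S100a9 fills the cytosol. Granulocyte colony-stimulating factor acts through the receptor encoded by Csf3r to drive this maturation, and Slpi encodes an inhibitor of the serine proteases that neutrophils release. Mature neutrophils carry Ly6G on their surface, and the sort took Ly6G– cells.

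The libraries held between 42972328 and 48130352 counts, and both lanes of a library agreed within sampling noise and were summed. Levels below are CPM, counts divided by the library total after its scaling by the trimmed mean of M-values (TMM). On this scale 3 counts, taken here as the floor of detection in a library, corresponded to between 0.0552 and 0.0769 CPM, and counting intervals cover counting error only, not the variation between mice. None of the 10 macrophage markers listed for these libraries was at 0 in any group. Their summed level was between 4722 and 23050 CPM in the 8 libraries. Most of this sum was Lyz2, at between 3998 and 19310 CPM, so that the sum mainly follows 1 gene. Siglec1, the gene of the sorted marker CD169, was at 15.1 and 8.47 CPM in SSMs from ndLN and 70.0 and 59.2 CPM in SSMs from tdLN. In MSMs it was at 0.795 and 1.63 CPM in ndLN and 5.96 and 5.64 CPM in tdLN. Markers of other cells were also present in the sorted SSMs: the 6 NK cell markers summed to between 1506 and 2493 CPM in the SSM libraries and to between 12.5 and 83.7 CPM in the MSM libraries, and the 8 basophil and mast cell markers to between 317.3 and 2739 CPM against between 35.3 and 74.1 CPM. The part of these cells in the levels below was not tested.

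The 4 promoters printed here belong to genes whose levels moved together in most SSM libraries (S100a8, S100a9 and Ngp) and to Ltf, which parted from them in pool 2. They are the bases before the RefSeq start on GRCm38.p6, printed 5′ to 3′ on the strand of the gene up to the point where the GENCODE gene begins. Capitals mark the letters TTGCNNAA or GAGGAA on either strand, the core letters bound by C/EBP factors and by PU.1, which are transcription factors of the granulocyte line. The windows lie at chr3:90668821-90668977 (plus strand) for S100a8, chr3:90695722-90695971 (minus strand) for S100a9, chr9:110419558-110419746 (plus strand) for Ngp and chr9:111019042-111019270 (plus strand) for Ltf.
S100a8: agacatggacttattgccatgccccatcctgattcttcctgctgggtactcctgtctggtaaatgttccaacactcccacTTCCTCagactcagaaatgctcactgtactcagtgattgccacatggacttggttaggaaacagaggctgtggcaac
S100a9: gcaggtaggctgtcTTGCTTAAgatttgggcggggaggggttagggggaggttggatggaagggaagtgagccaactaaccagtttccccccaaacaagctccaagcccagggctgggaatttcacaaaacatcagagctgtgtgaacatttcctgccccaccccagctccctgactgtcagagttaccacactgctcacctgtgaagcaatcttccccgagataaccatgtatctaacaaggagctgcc
Ngp: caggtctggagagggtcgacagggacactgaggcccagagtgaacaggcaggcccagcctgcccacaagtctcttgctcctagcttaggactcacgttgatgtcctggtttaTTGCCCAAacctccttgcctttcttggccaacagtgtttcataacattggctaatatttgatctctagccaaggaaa
Ltf: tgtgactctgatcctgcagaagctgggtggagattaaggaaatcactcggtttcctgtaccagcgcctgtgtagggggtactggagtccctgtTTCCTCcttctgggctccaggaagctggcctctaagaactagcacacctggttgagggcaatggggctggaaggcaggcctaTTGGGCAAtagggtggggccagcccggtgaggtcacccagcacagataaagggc

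Over the 250 bases before the RefSeq start, TTGCNNAA was found in 5 of the 10 genes (S100a9, Retnlg, Ngp, Ltf and Slpi) and in 9.56% of all 32851 promoters of the same length. GAGGAA was found in 5 of the 10 (S100a8, Ltf, Mpo, Elane and Csf3r) and in 23.3% of all promoters. Ltf was the gene that held both, with TTGCNNAA beginning 75 bases and GAGGAA 157 bases before the start. No match in these windows was found for Camp. A match of letters is a description of the sequence and does not show that a factor was bound.

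S100a8 (ENSMUSG00000056054, mm10 chr3:90668978-90670035, plus strand) and S100a9 (ENSMUSG00000056071, chr3:90692632-90695721, minus strand) lie 22597 bases apart and encode the subunits of calprotectin, a metal-binding protein released by activated neutrophils and monocytes. In SSMs, S100a8 was at 4.34 and 40.7 CPM in the ndLN libraries of pools 1 and 2 and at 103 and 46.0 CPM in the tdLN libraries. In MSMs, S100a8 was at 0.897 and 0.0223 CPM in ndLN and at 0.121 and 0.0220 CPM in tdLN, which are 35, 1, 5 and 1 counts. Every SSM library was above every MSM library, and the SSM library from ndLN of pool 1 was the lowest of the 4. The share of all genes with every SSM library above every MSM library was not counted. Within 1 kind of node, both SSM libraries were above both MSM libraries for 30.7% of all genes in ndLN and 29.5% in tdLN. S100a9 took the same course as S100a8, at 3.02, 46.1, 109.7 and 43.4 CPM in the SSM libraries in the same order and at no more than 0.641 CPM in any MSM library. The ratio of S100a9 to S100a8 counts was 1.13 (95% interval 1.07 to 1.20), 1.06 (1.02 to 1.11) and 0.944 (0.886 to 1.01) in 3 of the SSM libraries and 0.695 (0.566 to 0.852) in the ndLN library of pool 1.

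**Figure D1:**
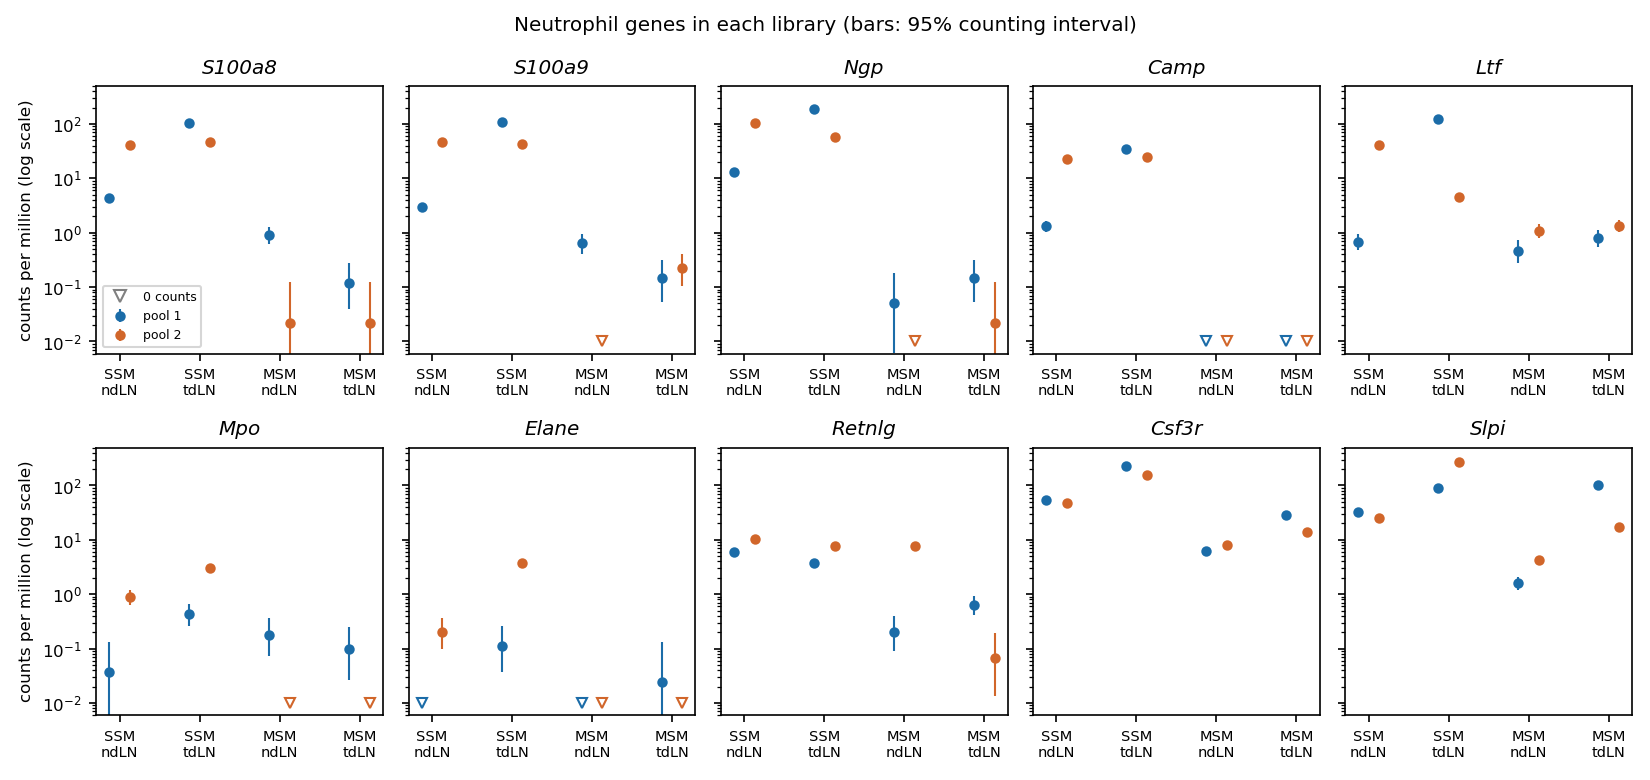
Level of each of the 10 genes in CPM (log axis) in the 4 groups, with 1 point per library (blue, pool 1; orange, pool 2), bars for the 95% counting interval and open triangles, placed at the foot of the panel, for libraries with 0 counts. S100a8, S100a9, Ngp, Camp and Csf3r were higher in each of the 4 SSM libraries than in any MSM library. The share of all genes for which this held was not counted. Ltf overlapped between the subsets, Csf3r and Slpi were present in every library, and Mpo and Elane stayed under 4 CPM throughout.

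Of the specific granule genes, Ngp and Camp did not overlap between the SSM and MSM libraries, whereas Ltf did. The share of all genes without such an overlap was not counted. Ngp (ENSMUSG00000032484, chr9:110419747-110423012, plus strand), which encodes a cystatin-related granule protein, was at 12.9 and 104.1 CPM in SSMs from ndLN and at 185.0 and 56.7 CPM in SSMs from tdLN. The 4 MSM libraries together held 9 Ngp counts. Camp (ENSMUSG00000038357, chr9:109847379-109849617, minus strand), the cathelicidin antimicrobial peptide precursor, was at 1.32, 22.3, 34.3 and 24.6 CPM in the SSM libraries and had 0 counts in all 4 MSM libraries. Ltf (ENSMUSG00000032496, chr9:111019271-111042767, plus strand), the iron-binding protein lactoferrin, was at 0.680, 40.6, 126.1 and 4.49 CPM in the SSM libraries. Unlike Ngp and Camp it was detected in every MSM library, at 0.462, 1.07, 0.800 and 1.34 CPM, so that the lowest SSM library lay within the range of the MSMs. All 3 genes are on chromosome 9, with 570130 bases between Camp and Ngp and 596259 bases between Ngp and Ltf.

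Counts of these genes did not keep 1 ratio in the SSM libraries. There were 0.102 Camp counts per Ngp count in the ndLN library of pool 1 (95% interval 0.0792 to 0.131), 0.214 (0.200 to 0.228) in that of pool 2, 0.185 (0.175 to 0.196) in the tdLN library of pool 1 and 0.434 (0.403 to 0.466) in that of pool 2. The ratio of Ltf to Ngp ranged more widely, from 0.0526 (0.0368 to 0.0733) in ndLN pool 1 and 0.0793 (0.0682 to 0.0918) in tdLN pool 2 to 0.390 (0.370 to 0.410) in ndLN pool 2 and 0.681 (0.659 to 0.705) in tdLN pool 1. In MSMs the order was turned round, with 160 Ltf counts against 9 Ngp counts over the 4 libraries.

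Primary granule genes had fewer counts. Mpo (ENSMUSG00000009350, chr11:87793581-87804413, plus strand), myeloperoxidase, was at 0.0368, 0.889, 0.426 and 2.98 CPM in the SSM libraries and at 0.179, 0, 0.0970 and 0 CPM in the MSM libraries. Its exons overlap those of the antisense gene Gm11505, and the strand setting of the counting is not given, so reads of the pair cannot be told apart. Elane (ENSMUSG00000020125, chr10:79886247-79888215, plus strand), neutrophil elastase, had 0, 10, 5 and 164 counts in the SSM libraries and 1 count in all MSM libraries. The SSM library from tdLN of pool 2 thus held 92.3% of the Elane level and 68.8% of the Mpo level summed over the SSM libraries, where the tdLN library of pool 1 was highest for S100a8, S100a9, Ngp, Camp and Ltf. That library of pool 2 was also the one with the highest level of Prtn3, the primary granule protease proteinase 3 (2.89 CPM, against 0.424 to 0.830 in the other SSM libraries), and of the eosinophil granule gene Prg2 (53.9 CPM against 0.583 to 4.56), but not of Ctsg, the primary granule protease cathepsin G, which was at 4.93 and 4.67 CPM in SSMs from ndLN and at 0.471 and 3.07 CPM in SSMs from tdLN and had 0 counts in all 4 MSM libraries. The 8 eosinophil markers summed to 186.6 CPM there and to between 49.9 and 119.7 CPM in the other SSM libraries, and their part in the level of Mpo and Elane was not tested. Of them Prg2, Epx, Ear1, Ear2 and Ear6 were highest there. Siglecf, Ccr3 and Il5ra were not, at 17.8, 19.8 and 4.86 CPM. In SSMs from ndLN they were at 32.0 and 23.95, 27.0 and 23.0, and 7.78 and 6.10 CPM. The 8 basophil and mast cell markers, summed, ran in the same order as Ctsg. They were at 2739 and 1599 CPM in SSMs from ndLN and 317.3 and 749.3 CPM in SSMs from tdLN. Their part in Ctsg was not tested.

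Retnlg (ENSMUSG00000022651, chr16:48872621-48874496, plus strand) encodes resistin-like gamma, a secreted protein abundant in mature mouse neutrophils, and did not follow the granule genes. It was at 6.09 and 10.3 CPM in SSMs from ndLN and at 3.81 and 7.82 CPM in SSMs from tdLN. In MSMs it was at 0.205, 0.630 and 0.0660 CPM in 3 libraries but at 7.60 CPM (341 counts) in the ndLN library of pool 2, which lay among the SSMs. In that library S100a8, S100a9, Ngp, Camp, Mpo and Elane had 1 count in all. Ltf, Csf3r and Slpi had 48, 364 and 190 counts there, against 18, 244 and 62 in the MSM ndLN library of pool 1.

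Csf3r (ENSMUSG00000028859, chr4:126024550-126044440, plus strand), the receptor for granulocyte colony-stimulating factor, was detected in every library, and its replicates lay within 2.01-fold of each other in every group. It was at 54.1 and 47.5 CPM in SSMs from ndLN, at 230.8 and 155.4 CPM in SSMs from tdLN, at 6.26 and 8.11 CPM in MSMs from ndLN and at 28.7 and 14.2 CPM in MSMs from tdLN. The 4 groups did not overlap, and the share of all genes for which this held was not counted. Sequence shared with other genes made up 10.5% of its transcripts, counted in windows of 50 bases, so part of its reads may belong to those. Slpi (ENSMUSG00000017002, chr2:164354070-164389095, minus strand), the secretory leukocyte protease inhibitor, is made by macrophages and epithelia as well as neutrophils. It was at 32.7 and 25.7 CPM in SSMs from ndLN and at 90.0 and 273.1 CPM in SSMs from tdLN, and at 1.59 and 4.23 CPM in MSMs from ndLN and 101.1 and 17.1 CPM in MSMs from tdLN. Both subsets were higher in tdLN, in each pool, and the MSM library from tdLN of pool 1 exceeded the SSM library of the same nodes.

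Levels of different genes can be compared only per length, here as TPM, in which counts are scaled by length before the library is scaled, over the union of the exons. By the mean over the 4 SSM libraries the order was S100a9 (295.0 TPM, range 19.9 to 592.2), Slpi (262.8, 81.3 to 659.6), Ngp (228.5, 36.4 to 426.9), S100a8 (212.1, 21.5 to 418.6), Csf3r (100.9, 49.3 to 180.3), Camp (83.9, 6.00 to 127.5), Retnlg (38.9, 18.1 to 64.7), Ltf (37.9, 0.678 to 103), Elane (3.00, 0 to 10.9) and Mpo (0.960, 0.0369 to 2.48). The ranges of all neighbours in this order overlapped. In MSMs Slpi (72.6 TPM) and Csf3r (10.8 TPM) came before Retnlg (10.0 TPM, set by 1 library), and the other 7 genes had means of at most 1.28 TPM.

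The 10 genes together made up between 0.0130% and 0.0854% of the counts of an SSM library and between 0.000928% and 0.0126% of those of an MSM library. Their summed level was 115.2 and 338.3 CPM in SSMs from ndLN, 883.3 and 618.2 CPM in SSMs from tdLN, 10.3 and 21.04 CPM in MSMs from ndLN and 131.7 and 33.0 CPM in MSMs from tdLN. What the sum was made of differed between libraries. Csf3r and Slpi gave 75.3% of it in SSM ndLN pool 1 and 69.3% in SSM tdLN pool 2, but 21.6% in SSM ndLN pool 2 and 36.3% in SSM tdLN pool 1, and over 94% of it in both MSM libraries from tdLN.

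**Figure D2:**
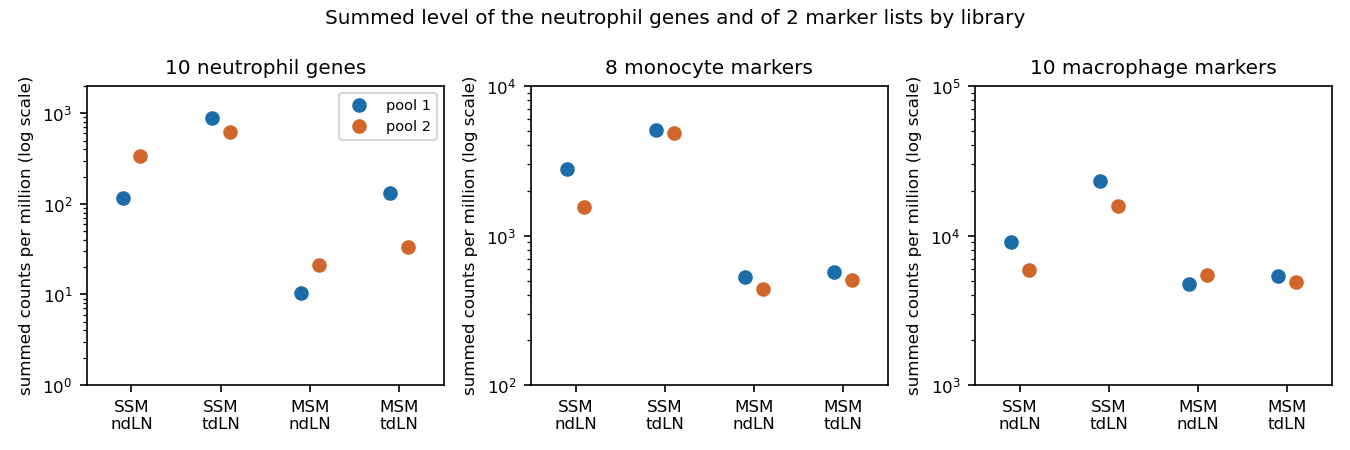
Summed CPM (log axes, each panel with its own range) of the 10 genes, of 8 monocyte markers and of 10 macrophage markers in the 4 groups, with 1 point per library (blue, pool 1; orange, pool 2). SSMs from tdLN were highest in all 3 panels, and within SSMs from ndLN pool 1 was below pool 2 for the neutrophil genes (115.2 against 338.3 CPM) but above it for both marker lists. Lyz2 gave most of the macrophage sum in every library.

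The comparison of SSMs with MSMs asked how the macrophage subsets differ in each kind of node. In ndLN, Ngp and Csf3r were higher in SSMs: Ngp had 5854 counts in SSMs and 2 in MSMs, a ratio of 2364 (95% counting interval 654.1 to 19530; edgeR adjusted p = 0.00637), and Csf3r was 7.03-fold higher (log2 fold change 2.79 ± 0.30, SE; edgeR adjusted p = 0.000571). These 2 of 10 members were called at an adjusted p under 0.01 and a mean normalized count over 100, where 6.01% of all genes tested were called higher in SSMs. A mean over 100 was reached by 8 of the 10 members but by 9988 of the 21085 genes. This share and the shares called in later comparisons therefore include many genes that could not be called. Camp, at 0 in both MSM libraries, was at least 315.8-fold higher over the group (floor of 3 counts over both libraries; the exact 95% lower limit is 256.4) and did not pass (edgeR adjusted p = 0.0744), nor did S100a8 (50.5-fold over the summed counts, edgeR adjusted p = 0.0195), S100a9 (79.0-fold, edgeR adjusted p = 0.0287), Slpi (9.77-fold, edgeR adjusted p = 0.0654) or Ltf (25.0-fold, edgeR adjusted p = 0.227). In 6 of 10 members both SSM libraries were above both MSM libraries, where the same held for 30.7% of all genes. Whether Slpi and Camp passed depended on libraries outside this comparison. Slpi passed without either MSM library from tdLN, and Camp passed without either SSM library from tdLN. The call of Ngp was lost without either MSM library from ndLN (edgeR adjusted p = 0.0422 without pool 1 and 0.0786 without pool 2) or either from tdLN (0.0304 and 0.0306), while that of Csf3r held in each of these fits. Without the SSM ndLN library of pool 1, 6 members were called, namely S100a8, S100a9, Ngp, Camp, Ltf and Csf3r.

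In tdLN, S100a8, S100a9, Ngp and Csf3r were higher in SSMs, and these 4 of 10 members compare with 5.16% of all genes called higher. S100a8 was 1081-fold higher over the summed counts (95% counting interval 496.5 to 2948; edgeR adjusted p = 0.00279), S100a9 416.7-fold (256.4 to 729.5; edgeR adjusted p = 0.00558), Ngp 1505-fold (730.3 to 3745; edgeR adjusted p = 0.00321) and Csf3r 9.17-fold (8.74 to 9.63; edgeR adjusted p = 0.000312). Camp was at least 851.9-fold higher (exact 95% lower limit 692.3; edgeR adjusted p = 0.0309), and Elane had 169 counts against 1 (ratio 166.1, 29.4 to 6597; edgeR adjusted p = 0.0325). Both SSM libraries were above both MSM libraries for 9 of 10 members, against 29.5% of all genes. The exception was Slpi, which was 0.890-fold in pool 1 and 15.9-fold in pool 2 (edgeR adjusted p = 0.252). Without the MSM tdLN library of either pool, Csf3r was the 1 gene called of the 10, with edgeR adjusted p-values of 0.0693 and 0.0912 for S100a8, 0.0961 and 0.118 for S100a9 and 0.0805 and 0.0977 for Ngp. Without SSM tdLN pool 1 the calls of S100a8 (edgeR adjusted p = 0.0228) and S100a9 (0.0289) were lost, and that of S100a9 was lost without either MSM ndLN library (0.0201 in each fit) and in the earlier (legacy) quasi-likelihood fit (0.0126), while without SSM tdLN pool 2 there were 6 calls.

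The median log2 fold change of the 10 members, SSMs over MSMs, was 5.02 in ndLN and 6.51 in tdLN, beside 0.09 and 0.02 for all genes tested. With the members that had no count in MSMs set to their lower bound, the median was 3.998 in ndLN and 6.51 in tdLN. In bulk libraries, fewer cells of a type and less RNA per cell cannot be told apart, and the 8 monocyte markers moved with these differences: all 8 were called higher in SSMs in tdLN and 6 in ndLN, with sums of 1544 to 5074 CPM in SSMs and 441.8 to 567.6 CPM in MSMs. Of 8 T cell markers 7 were called higher and 1 lower in SSMs in ndLN and 6 and 1 in tdLN, with sums of 1104 to 2945 CPM in SSMs and 503.3 to 811.6 CPM in MSMs. Cd8a, the marker called lower, gave most of the MSM sum, at 356.6 to 605.1 CPM, and was at 10 to 25.75 CPM in SSMs. Cd3e was at 75.0 to 150.8 CPM in SSMs and at 2.14 to 16.3 CPM in MSMs. Dendritic cell markers went the other way from the monocyte markers, with 7 of 8 called lower in SSMs in each node and sums of 295.1 to 366.8 CPM against 2550 to 3033 CPM. Of the 21085 genes tested, 1277 were called lower in SSMs in ndLN and 743 in tdLN. The part of these cells in the difference was not tested. Ly6g, which encodes the antigen used to exclude neutrophils, had 28 counts in the SSM library from tdLN of pool 1 and 0 in the other 7, where a count of 0 allows up to the floor of 3 counts, between 0.0552 and 0.0769 CPM. Cxcr2, a chemokine receptor of mature neutrophils, was at 0.910 to 2.11 CPM in SSMs and at 0 to 0.638 CPM in MSMs.

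Between the nodes, Csf3r was the member called in SSMs. It was 3.797-fold higher in tdLN (log2 fold change 1.90 ± 0.26, SE; edgeR adjusted p = 0.00563), by 4.27-fold in pool 1 and 3.27-fold in pool 2. This is 1 of 10 members, where 1.99% of all genes were called higher. The call was lost without any of the 4 SSM libraries (edgeR adjusted p = 0.0391 and 0.0386 without ndLN pools 1 and 2, 0.0928 and 0.0684 without tdLN pools 1 and 2) and, narrowly, without either MSM tdLN library (0.0103 and 0.0101), with a log2 fold change between 1.73 and 2.07 in these fits. It was also lost in a fit of only the 4 SSM libraries (edgeR adjusted p = 0.0297) and, narrowly, in the earlier (legacy) quasi-likelihood fit (0.0103), which was chosen after seeing the data. Slpi was 2.75-fold higher in pool 1 and 10.6-fold higher in pool 2 (log2 fold change 2.68 ± 0.84, SE; edgeR adjusted p = 0.0970). The 10 macrophage markers moved with Csf3r and Slpi, summing to 9114 and 5914 CPM in SSMs from ndLN and 23050 and 15830 CPM in SSMs from tdLN with 8 of 10 called higher, while the monocyte markers summed to 2775 and 1544 CPM in ndLN and 5074 and 4865 CPM in tdLN with 1 of 8 called, the chemokine receptor Ccr2. The T cell markers summed to 2549 and 2945 CPM in SSMs from ndLN and 1104 and 1256 CPM in SSMs from tdLN, with 3 of 8 called lower, where 221 of the 21085 genes tested were called lower. Salivary gland markers, 8 in all, summed to 84.0 and 82.2 CPM in SSMs from ndLN and to 0.0224 and 0 CPM in SSMs from tdLN, and to 38.6 and 37.1 against 0.0485 and 0.154 CPM in MSMs, with 1 of the 6 that passed the filter called lower in each subset. The part of these cells in Csf3r and Slpi was not tested.

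The calprotectin and specific granule genes, by contrast, differed between the nodes in pool 1 and not in the same way in pool 2. In pool 1 S100a8 was 23.7-fold (95% counting interval 20.8 to 27.2), S100a9 36.4-fold (31.1 to 42.8), Ngp 14.3-fold (13.3 to 15.5), Camp 25.9-fold (20.4 to 33.3) and Ltf 185.3-fold (134.3 to 263.5) higher in tdLN. In pool 2 the folds were 1.13 for S100a8 (1.06 to 1.20), 0.942 for S100a9 (0.886 to 1.00), 0.544 for Ngp (0.518 to 0.571), 1.10 for Camp (1.01 to 1.20) and 0.111 for Ltf (0.0952 to 0.128), and those of S100a8 and Camp fell below 1 when CPM were taken over library totals. None of the 5 passed the test (edgeR adjusted p between 0.192 and 0.718). Without SSM ndLN pool 2 the called members were S100a8, S100a9 and Ngp in place of Csf3r (edgeR adjusted p = 0.00560, 0.00560 and 0.00336), whereas without SSM ndLN pool 1 the log2 fold changes were 0.14, -0.10 and -0.88. Both tdLN libraries were above both ndLN libraries for 4 of 10 members (S100a8, Camp, Csf3r and Slpi), against 25.6% of all genes, and for 2 of 10 over library totals (Csf3r and Slpi).

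**Figure D3:**
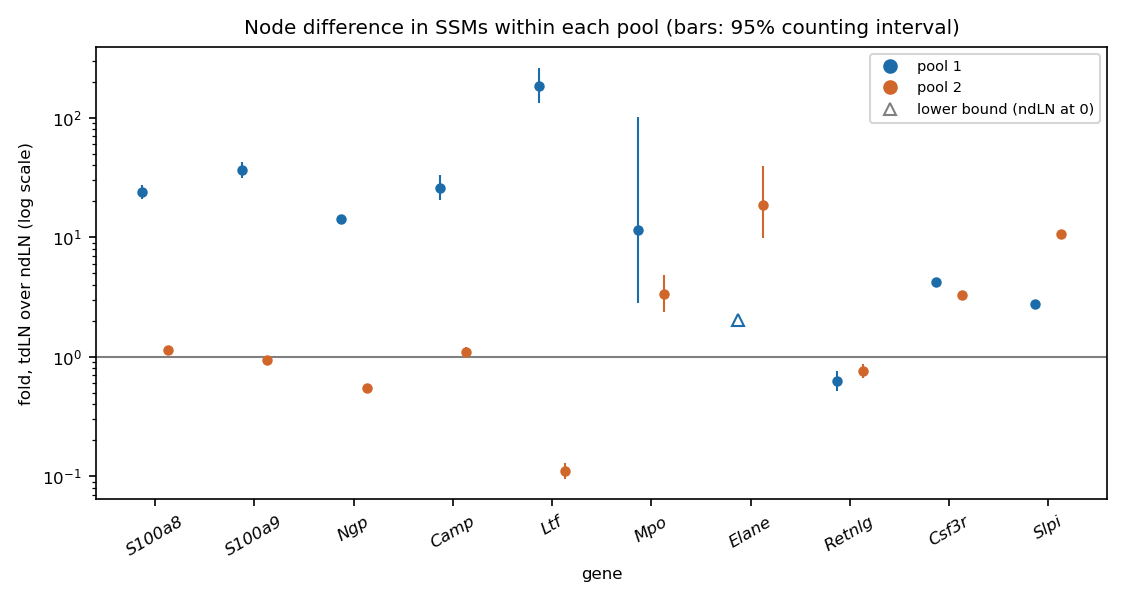
Fold of tdLN over ndLN in SSMs (log axis) for each gene within pool 1 (blue) and pool 2 (orange), with bars for the 95% counting interval, a line at 1 and an open triangle for the lower bound of Elane in pool 1, where ndLN had 0 counts. Csf3r, Slpi and Mpo were above 1 and Retnlg below 1 in both pools, whereas Ngp and Ltf lay on opposite sides of 1.

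Elane had 0 and 10 counts in SSMs from ndLN and 5 and 164 in SSMs from tdLN (ratio over both pools 19.9, 95% counting interval 10.6 to 42.2; edgeR adjusted p = 0.0643), and Mpo 2 and 44 against 19 and 130 (3.81, 2.72 to 5.43; edgeR adjusted p = 0.291). Retnlg was 0.626-fold and 0.763-fold in tdLN in pools 1 and 2 (edgeR adjusted p = 0.671). The median log2 fold change of the 10 members between the nodes in SSMs was 1.90, and -0.04 for all genes tested.

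**Figure D4:**
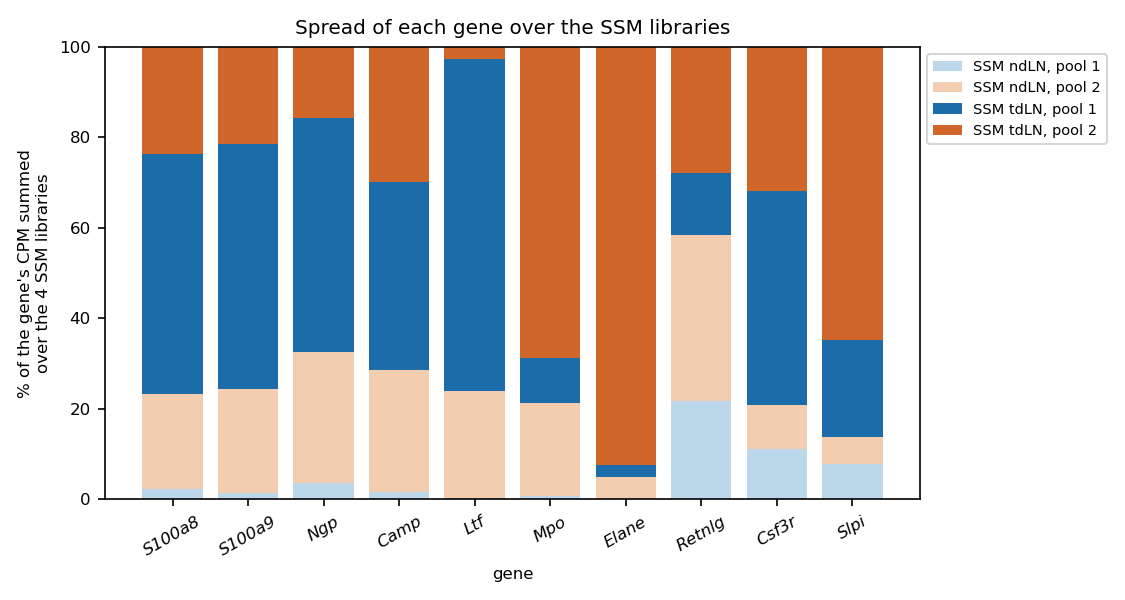
Share of each gene's CPM, summed over the 4 SSM libraries, found in each of them (stacked bars from 0 to 100%). The tdLN library of pool 1 held 41.6% to 73.4% of S100a8, S100a9, Ngp, Camp and Ltf, that of pool 2 held 68.8% of Mpo and 92.3% of Elane, and Retnlg was spread over all 4.

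In MSMs no member was called between the nodes by edgeR, where 0.0237% of all genes were called in either direction. At an unadjusted p under 0.05 there were 3 members (Retnlg, Csf3r and Slpi), and DESeq2 called 2, Csf3r and Slpi. Csf3r was 4.58-fold higher in tdLN in pool 1 and 1.76-fold in pool 2 (log2 fold change 1.50 ± 0.32, SE; edgeR adjusted p = 0.125), and Slpi 63.6-fold and 4.05-fold (log2 fold change 4.24 ± 1.08, SE; edgeR adjusted p = 0.187). For these 2 of 10 members both tdLN libraries were above both ndLN libraries, against 20.4% of all genes. The other members had too few counts in MSMs for the node to be compared at this depth, apart from Ltf (66 counts in ndLN and 94 in tdLN, 1.38-fold, 0.995 to 1.92) and Retnlg, where 1 library decided the value. The node difference of SSMs and that of MSMs share no library, and the interaction tested whether they differed. It was called by edgeR for 0 of 10 members and for 0.0379% of all genes in either direction, and 0 members had an unadjusted p under 0.05 or were called by DESeq2. For Csf3r the difference of the log2 fold changes, SSMs minus MSMs, was 0.40 ± 0.41 (SE; edgeR adjusted p = 0.825) and for Slpi -1.56 ± 1.42 (SE; edgeR adjusted p = 0.784).

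Other genes of neutrophils were taken from a list of 30, of which 28 passed the filter. Lists share some genes: Gfi1 is also counted along the pathway of Csf3r, Fpr2 among the receptors and Chil3 among the monocyte markers. For this and the lists that follow, 6.01% of all genes tested were called higher in SSMs than in MSMs in ndLN and 5.16% in tdLN. Between the nodes in SSMs 1.99% were called higher in tdLN and 221 of the 21085 genes lower. Called lower in SSMs than in MSMs were 1277 genes in ndLN and 743 in tdLN. The median log2 fold changes of SSMs over MSMs for all genes tested were 0.09 in ndLN and 0.02 in tdLN. With MSMs as the reference, SSMs showed 11 calls upward and 1 downward in ndLN (Il1r2, the decoy receptor of interleukin-1, -2.88 ± 0.36) and again 11 and 1 in tdLN (the membrane protease Mmp25, -1.01 ± 0.16), with median log2 fold changes of 3.19 and 4.32. Those with the largest changes in ndLN were Cd177, a neutrophil surface antigen (log2 fold change 5.81 ± 0.49, SE), the repressor of transcription Gfi1 (4.73 ± 0.40), the matrix protease Mmp9 (4.02 ± 0.36) and the chitinase-like gene Chil3 (3.82 ± 0.46). In tdLN they were Lcn2, the siderophore-binding lipocalin of specific granules (8.19 ± 1.77), the collagenase Mmp8 (5.89 ± 0.43), haptoglobin Hp (5.64 ± 0.53) and Lrg1 (5.62 ± 0.47). Between the nodes in SSMs 2 were called higher and 1 lower: Lrg1 (3.99 ± 0.38) and the formyl peptide receptor Fpr2 (1.84 ± 0.27) rose in tdLN, and Mmp9 fell by 2.58 on the log2 scale (SE 0.30). Lcn2 was at 1.49, 13.5, 46.1 and 6.83 CPM in the SSM libraries in the order given for S100a8, so it was lowest and highest in the same libraries as Ltf. In MSMs none of the 28 was called between the nodes, the most abundant being Mxd1 (0.66 ± 0.14, SE; edgeR adjusted p = 0.119) and Il1r2 (-1.04 ± 0.35; edgeR adjusted p = 0.294), and none was called in the interaction (Mxd1 -0.55 ± 0.19; Il1r2 2.86 ± 0.49, edgeR adjusted p = 0.0497).

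The S100 family, calcium-binding proteins of many cell types, had 16 genes in the list. Of these 13 passed the filter, and 2 were called higher and 1 lower in SSMs in ndLN and 4 and 1 in tdLN, the calprotectin pair included. S100a10 was higher in SSMs in both nodes (log2 fold change 1.90 ± 0.22 and 1.29 ± 0.21, SE) and S100a6 likewise (1.66 ± 0.21 and 1.11 ± 0.20), while S100a11 was lower in both (-1.20 ± 0.18 and -1.50 ± 0.18). None was called by edgeR between the nodes in SSMs (2 at an unadjusted p under 0.05, 0 by DESeq2) or in MSMs (3 and 1). The most abundant, S100a11 and S100a6, had log2 fold changes of 0.27 ± 0.18 and 0.39 ± 0.20 in SSMs and 0.57 ± 0.18 and 0.93 ± 0.21 in MSMs.

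Along the pathway of Csf3r, all 12 genes listed passed the filter, and 5 were called higher in SSMs in each node, with 1 lower in tdLN (the kinase Jak2, -0.93 ± 0.15, SE). Gfi1 was among them in both nodes (log2 fold change 4.73 ± 0.40 and 4.41 ± 0.43, SE), as was Cebpb, a C/EBP factor of emergency granulopoiesis and of macrophages (2.88 ± 0.20 and 3.27 ± 0.20). The receptor-associated kinase Jak1 was higher in both nodes (1.26 ± 0.16 and 1.11 ± 0.16), its substrates Stat3 (0.89 ± 0.16) and Stat5b (0.76 ± 0.14) were called in ndLN, and Cebpd (1.53 ± 0.19) and the feedback inhibitor Socs3 (1.41 ± 0.12) in tdLN. Between the nodes in SSMs 1 of 12 was called, Cebpa, the C/EBP factor of early myeloid cells, which was higher in tdLN (2.43 ± 0.32). The ligand itself, Csf3, was at 0.607 to 2.70 CPM in SSMs and at 0 to 2.52 CPM in MSMs. Between the nodes in MSMs Jak1 was at -0.34 ± 0.15 and Stat3 at 0.47 ± 0.16, neither called.

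Among the 5 ligands of CXCR2, which draw neutrophils into tissue, Cxcl2 was called higher in SSMs in ndLN (log2 fold change 1.21 ± 0.18, SE) and in tdLN (1.81 ± 0.18) and higher in tdLN than in ndLN in SSMs (1.16 ± 0.17), as the 1 call in each comparison. In MSMs no ligand was called between the nodes (Cxcl2 0.55 ± 0.18; Cxcl1 1.15 ± 0.25, edgeR adjusted p = 0.129). Of 7 receptors for the secreted members, Fpr2, which binds the cathelicidin peptide, was higher in SSMs in both nodes (3.22 ± 0.50 and 4.73 ± 0.40), and Tlr4, a receptor for calprotectin (2.44 ± 0.29), and Lrp1, a lactoferrin receptor (2.40 ± 0.19), were higher in tdLN. Cd36, which also binds calprotectin, was lower in SSMs in both nodes (-4.39 ± 0.17 and -3.87 ± 0.18). In SSMs Lrp1 rose (1.33 ± 0.18) and Cd36 fell by 1.25 on the log2 scale (SE 0.18) from ndLN to tdLN. In MSMs none was called (Cd36 -1.76 ± 0.15, edgeR adjusted p = 0.0120; Bsg -0.09 ± 0.12).

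Of 15 other protease inhibitors, 10 passed the filter, with 1 call upward and 1 downward in SSMs in ndLN and 1 downward in tdLN. Cystatin C (Cst3) was lower in SSMs in ndLN (log2 fold change -4.40 ± 0.18, SE) and tdLN (-3.26 ± 0.18). Serpinb1a, an intracellular inhibitor of neutrophil elastase, was higher in SSMs in ndLN (2.05 ± 0.20) and fell by 1.51 on the log2 scale (SE 0.20) in SSMs from ndLN to tdLN. In MSMs its log2 fold change from ndLN to tdLN was 1.28 ± 0.20 (edgeR adjusted p = 0.0545), and the interaction was -2.79 ± 0.28 (edgeR adjusted p = 0.0165), so that neither was called. Over the 68 genes of these 6 lists that passed the filter, members left aside, edgeR called 0 between the nodes in MSMs and 0 in the interaction. At an unadjusted p under 0.05 there were 16 and 16, and DESeq2 called 8 and 10.

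The genes most like each member over the 8 libraries were found by Pearson correlation of log2(CPM + 1), here with CPM over library totals without TMM. They were sought among 9986 genes whose mean normalized count, after rounding, was over 100. These values describe 8 libraries that share the split between SSMs and MSMs and carry no test. S100a8 was nearest to S100a9 (r = 0.997), Camp (0.989) and Ngp (0.984), and S100a9 to S100a8, Camp (0.995) and Ngp (0.980). Camp was nearest to S100a9, S100a8 and Ngp (0.971), and S100a8 and S100a9 were among the 3 genes nearest to Ngp. Ltf was nearest to Lcn2 (0.945), Alg9 (0.916) and Cdc40 (0.894). Among the 3 genes nearest to Csf3r were Gab1 (0.995) and C3 (0.993), with 454 genes over 0.9 where Ltf had 2. Slpi was nearest to Ap5b1 (0.968), Hs1bp3 (0.962) and Tmem39b (0.959), and Retnlg to Fzd5 (0.987), Dedd2 (0.982) and 1110004F10Rik (0.969).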

How the data were processed

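RNA was measured in 16 samples, which are 8 libraries sequenced on lanes 3 and 4. The authors made cDNA with the SMART-Seq v4 kit, demultiplexed with bcl2fastq 2.20.0.422, trimmed with Trimmomatic 0.36, aligned with STAR 2.5.3a to GRCm38 (mm10), per the labels, and the authors deposited raw counts per gene without normalization. The strand setting and counting mode are not given in the sources used here. The 10 genes and all gene lists were chosen with earlier results of these data known.

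Lanes were summed (chi-square per degree of freedom 0.955 to 1.02 within libraries, 29.3 to 53.1 between pools). Symbols and positions came from GENCODE M21, promoters from RefSeq (GRCm38.p6), in which all 10 genes matched. Genes with at least 10 counts in total, detected in at least 2 samples, were kept. Counts were scaled by TMM and tested by edgeR 4.0.16 (R 4.3.3; quasi-likelihood, group and pool, all 8 libraries, Benjamini-Hochberg over 21085 genes), and a gene was called at an adjusted p under 0.01 where its mean normalized count, per lane, exceeded 100. The script was tested on simulated data first. Pool numbers come from the labels, and the study's methods state that each pool of 2 mice gave all 4 kinds of sample, so pool was in the model; deviations of same-numbered libraries correlated between -0.187 and 0.146. The study's methods count 4 pools as biological replicates; the labels show pools 1 and 2, each on 2 lanes, so n = 2 was used. With 2 libraries a group, p-values rest on the spread left after group and pool. The 4 groups share 1 estimate of that spread, so libraries outside a comparison also count. Folds over summed counts have exact (Clopper-Pearson) intervals, and a fold against a group at 0 is a bound against 3 counts over the group. A named gene of a list is one of up to 4 called with the largest change in a comparison, or, where none was called, of the 2 most abundant; Prtn3, Prg2, Lcn2, Cxcr2, Csf3, Stat5b, Jak2, Mmp25, Ctsg and Ccr2 values were added after their values were seen. Some of the genes most like a member are not reported here. Rows for 2 added sequences held 6 counts in total. Alternatives were the model without pool, DESeq2 1.42.0 and its size factors, library totals, no filter, only the groups compared, a looser threshold, lane 3 alone, each library left out and, chosen after seeing the data, the earlier (legacy) quasi-likelihood fit. Python 3.11.15, pandas 2.3.3 and scipy 1.17.1 were used.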

Additional observations from a re-analysis of the deposited data

Results flagged for a closer look

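S100a8 was marked because it moved in opposite directions between the nodes in SSMs and MSMs, in both pools; the opposite moves themselves were not tested, and the interaction, SSMs minus MSMs, was 4.59 ± 4.28 on the log2 scale (SE; edgeR adjusted p = 0.790). In pool 2 of the MSMs the move is 1 count in each library, 0.0223 against 0.0220 CPM, and in pool 2 of the SSMs it is 40.7 against 46.0 CPM, which turns to 46.9 against 46.3 CPM over library totals. With groups of 2 libraries, no group was large enough to mark an outlying sample.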

How the results depend on the processing

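With n = 2 pools a group, the spread between pools limited the more abundant members, while Ngp, Camp and Elane in MSMs lay near the floor. No fitted node difference in MSMs is given for the 8 members with under 100 counts in an MSM group. The model without pool (no replicate block) changed no call of a member and gave 9 genes called between the nodes in MSMs in place of 5. Scaling by library totals changed no call of a member and moved the median log2 fold change of all genes, SSMs over MSMs in ndLN, from 0.09 to 0.36, and that between the nodes in SSMs from -0.04 to -0.23. Genes called were split 1268 higher and 1277 lower in ndLN, but 1728 and 824 over library totals, and 419 and 221 between the nodes in SSMs, but 280 and 381. The summed level of the members moved by less than the spread between pools.

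Genes called numbered 2545 in ndLN and 1832 in tdLN between the subsets, 640 and 5 between the nodes in SSMs and MSMs, and 8 in the interaction. DESeq2 called 3672, 2990, 1932, 496 and 677, and members 5, 6, 1, 2 and 0. With DESeq2 size factors the interaction had 4. In fits of only the 4 libraries compared, 944 were called in ndLN, 0 between the nodes in SSMs and 0 in MSMs, with 0 members between the nodes in SSMs. At an adjusted p under 0.05 with no minimum mean, 4932, 3533, 2032, 97 and 216 genes were called, and 4 and 7 members between the subsets. Lane 3 alone gave 24 between the nodes in MSMs and 25 in the interaction. The legacy fit, chosen after seeing the data, gave 23 between the nodes in MSMs and 0 members between the nodes in SSMs.

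Leaving out 1 library at a time gave 1081 to 2007, 508 to 1883, 2 to 345, 0 to 3 and 0 genes called, and 1 to 6 members in ndLN, 1 to 6 in tdLN and 0 to 3 between the nodes in SSMs; a lone library was assumed to vary like the other groups. Log2 fold changes that changed sign there ranged between the nodes in SSMs from -0.10 to 5.19 for S100a9, from -0.88 to 3.84 for Ngp and from -2.92 to 7.24 for Ltf. They ranged for SSMs against MSMs in ndLN from -1.30 to 8.25 for Ltf and from -0.69 to 8.21 for Mpo, and in the interaction from -0.11 to 0.84 for Csf3r and from -3.16 to 0.18 for Slpi. By the longest transcript, 6 of 10 members changed place in the order of TPM in SSMs, with Slpi at place 1. Where a cause is not given, it was not tested.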
